A study of Mus musculus with 12 samples.

Results

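The transcripts of 10 integrin subunits of muscle cells were examined in C2C12 myotubes, 8 alpha subunits (Itga1, Itga3, Itga5, Itga6, Itga7, Itga8, Itga9 and Itgav) and 2 beta subunits (Itgb1 and Itgb5). They were chosen by gene symbol, and all 10 were found among the 55487 genes in the count table. C2C12 is a mouse myoblast line that fuses into multinucleated myotubes when serum is lowered. After 5 days of differentiation in 2% horse serum, the myotubes were given 24 h of medium with either 4% horse serum (control, libraries 1 to 6) or 4% STEM (libraries 7 to 12), the secretome of partially differentiated human pluripotent stem cells. STEM was applied in place of horse serum, so adding STEM and removing horse serum cannot be told apart. The question was which transcripts of the myotubes differed between both media.

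Integrins are cell surface receptors, each made of 1 alpha and 1 beta chain, that tie the extracellular matrix to the actin cytoskeleton. The alpha chain largely sets the ligand. In muscle, alpha7beta1 is the main laminin receptor of the fibre and holds it to its basement membrane, and alpha3beta1 and alpha6beta1 also bind laminins. Alpha5beta1 binds fibronectin, alphav with beta1, beta3 or beta5 binds RGD motifs in fibronectin, vitronectin and osteopontin, and alpha8beta1 binds nephronectin. Alpha1beta1 binds collagens and alpha9beta1 binds tenascin C and Vcam1.

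Each library held between 13285472 and 24536264 counted reads. Values are CPM, the reads of a gene scaled to the size of its library with TMM factors. Differences are log2 fold changes of STEM over horse serum, fitted in edgeR (quasi-likelihood). The p-values were adjusted over the 14175 genes tested (Benjamini-Hochberg), and a gene is called differentially expressed where this value did not exceed 0.05. Horse serum library 6 stood apart. On the first principal component of log2 CPM (44.2% of the variance), the other horse serum libraries lay at -35.5 to -24.6. The STEM libraries lay at 15.5 to 28.6 on that axis, and horse serum library 6 lay nearer to them, at 11.2. On the second component library 6 lay far from both groups, at -53.3. There the other horse serum libraries lay at 0.216 to 3.15 and the STEM libraries at 2.04 to 11.8. The summed CPM of 10 myotube markers (Myog, Mymk, Mymx, Ckm, Acta1, Myh3, Myh8, Tnnt3, Ttn and Des) in library 6 was 12000. It was 17300 to 19700 in the other horse serum libraries and 15800 to 21300 with STEM. The summed CPM of 5 markers of dividing cells (Mki67, Top2a, Ccnb1, Cdk1 and Bub1) in library 6 was 959. It was 573 to 874 in the other horse serum libraries and 437 to 536 with STEM. The library was kept, and values without it are given beside a part of the results that it moved. Other genes that it moved are not listed. Endothelial markers summed to at most 1 CPM and leukocyte markers to at most 5.71 CPM in any library. Ptprc had 1 count at most, and Adgre1, Kdr and Tie1 had 0 throughout. Cd68 was present at 2.00 to 4.66 CPM with horse serum and 3.31 to 4.54 CPM with STEM. Tek reached 11 counts, Itgam 9, Cdh5 6 and Pecam1 2. Csf1r reached 30 counts and passed the filter only without library 6, where it was higher with STEM (log2 fold change 1.45, adjusted p = 0.00234, edgeR). Fibroblast markers summed to 42.5 to 56.0 CPM with horse serum and 42.4 to 45.2 CPM with STEM. Of these, Pdgfra (9.32 to 24.8 CPM), Ly6a (12.1 to 38.7 CPM), Dcn (4.71 to 9.95 CPM) and Pi16 (0.274 to 6.30 CPM) were present, while Thy1 had 1 count at most and Lum 3 counts at most in any library. The labels do not say whether libraries came from separate cultures, so p-values measure the spread between these libraries, which may be technical.

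Levels of different genes were compared as CPM per kb of exon length. Itgb1, the beta chain shared by most of these receptors, was the highest at 311 ± 21.3 CPM per kb with horse serum (SD, n = 6). Itga7 followed at 137 ± 6.11 CPM per kb, and Itgb5 was at 82.8 ± 13.4 CPM per kb. Below them came Itga5 (16.0 ± 1.29), Itgav (12.5 ± 2.06), Itga3 (10.4 ± 1.13) and Itga6 (6.31 ± 0.785 CPM per kb). Itga1 was at 0.506 ± 0.089 CPM per kb, Itga9 at 0.0912 ± 0.0394 and Itga8 at 0.0183 ± 0.00842. The order was the same with STEM. With horse serum the ranges of neighbours overlapped between Itga5 and Itgav, between Itgav and Itga3 and between Itga9 and Itga8, and with STEM between Itga5 and Itgav and between Itga9 and Itga8. When the longest transcript was used in place of the exon length, Itgav came before Itga5 and Itga6 before Itga3.

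Of the 10 genes, 8 passed the filter on low counts and 4 of these were differentially expressed, all lower with STEM: Itga3, Itga6, Itga7 and Itgb1. Over all tested genes 36.4% were differentially expressed, 17.4% lower and 18.9% higher. The 8 tested subunits had a median log2 fold change of -0.20, and all tested genes one of 0.01. For 3 of the 8 the libraries of both groups did not overlap, all lower with STEM, against 17.2% of all tested genes (8.52% lower and 8.68% higher). Without horse serum library 6 the same 4 subunits were called, of 9 tested, against 50.8% of all genes (24.5% lower and 26.3% higher). The 3 laminin-binding alpha subunits were all among the genes that fell, while the fibronectin and RGD receptor subunits Itga5 and Itgav did not pass the test. Whether these sets of subunits differ in their change was not tested. Gene counts do not separate the splice forms of a subunit. In bulk RNA, fewer cells of a type and less RNA per cell cannot be told apart.

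**Figure D1:**
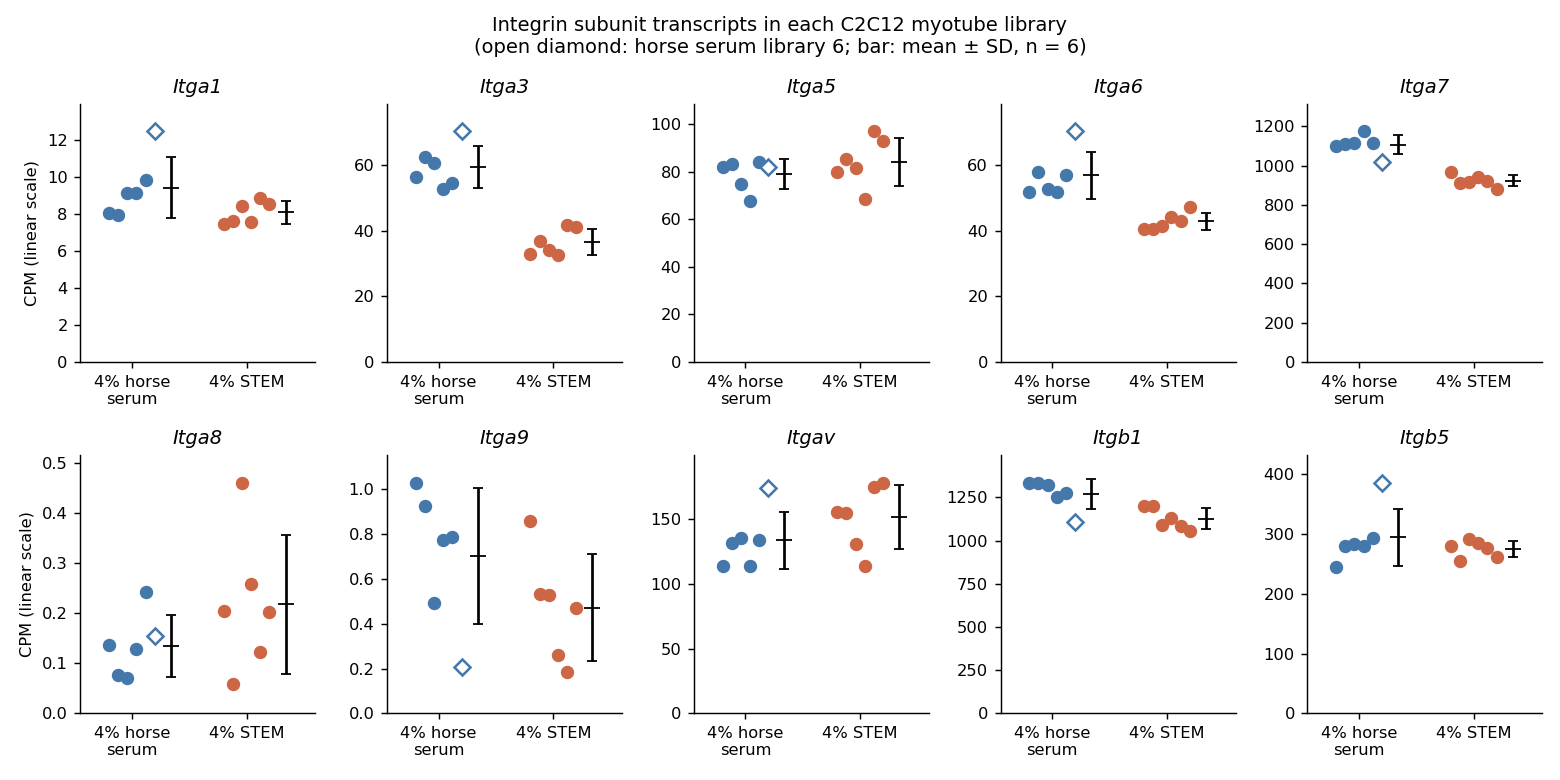
CPM of each of the 10 integrin subunits (vertical axes, linear and starting at 0) in the 6 horse serum libraries (blue) and the 6 STEM libraries (orange), with horse serum library 6 as an open diamond and the mean ± SD beside each group. Itga3, Itga6 and Itga7 show STEM libraries wholly below the horse serum libraries, and library 6 is the highest horse serum library for Itga1, Itga3, Itga6, Itgav and Itgb5.

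Itga3 (ENSMUSG00000001507, GRCm38 chromosome 11, 95044474 to 95076801, minus strand, protein coding) encodes the alpha chain of a laminin receptor. It ranged from 52.6 to 70.3 CPM with horse serum (median 58.5) and from 32.7 to 41.9 CPM with STEM (median 35.5). Every STEM library lay below every horse serum library. Its log2 fold change was -0.70 ± 0.0824 (SE; edgeR adjusted p = 1.74e-05), a level 0.615 times that with horse serum, the largest change of the 8 subunits tested. Without horse serum library 6 it was -0.65 (adjusted p = 4.49e-07, edgeR).

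Itga6 (ENSMUSG00000027111, chromosome 2, 71745616 to 71858416, plus strand), another laminin receptor chain that marks many stem and progenitor cells, ranged from 51.7 to 70.4 CPM with horse serum (median 54.9) and from 40.5 to 47.3 CPM with STEM (median 42.3). The groups did not overlap. The log2 fold change was -0.41 ± 0.074 (SE; edgeR adjusted p = 0.000567), and -0.34 (adjusted p = 2.15e-05, edgeR) without horse serum library 6, which had the highest level.

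Itga7 (ENSMUSG00000025348, chromosome 10, 128933818 to 128958282, plus strand), the alpha chain characteristic of muscle fibres, ranged from 1020 to 1174 CPM with horse serum (median 1112) and from 882 to 968 CPM with STEM (median 918). All 6 STEM libraries were below all 6 horse serum libraries. Its log2 fold change was -0.26 ± 0.0449 (SE; edgeR adjusted p = 0.000414), a level 0.835 times that with horse serum. In horse serum library 6, where the myotube markers were low, Itga7 was the lowest of its group at 1020 CPM against 1101 to 1174 CPM in the other 5, and without that library the log2 fold change was -0.28. For Itga3, Itga6 and Itga7 the exact permutation test of log2 CPM gave p = 0.00216 (two-sided), the smallest that 6 libraries against 6 allow.

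Itgb1 (ENSMUSG00000025809, chromosome 8, 128685654 to 128733200, plus strand) ranged from 1107 to 1335 CPM with horse serum (median 1300) and from 1058 to 1200 CPM with STEM (median 1109). The groups overlapped through horse serum library 6, which held the lowest horse serum value, and 3 of 6 STEM libraries lay below it. The log2 fold change was -0.17 ± 0.056 (SE; edgeR adjusted p = 0.0247), with an exact permutation p of 0.013 (two-sided). This call was the least firm of the 4. Without horse serum library 6 it was -0.21 (adjusted p = 0.000591, edgeR), and leaving out horse serum library 1, 2 or 3 or STEM library 9, 11 or 12 ended the call, with adjusted p in edgeR of 0.0521, 0.0591, 0.0568, 0.0563, 0.0561 and 0.0541.

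Promoter windows from 250 bases before to 50 after the start site were taken from RefSeq on GRCm38.p6, which held 9 windows for 8 of the 10 genes. Itga6 and Itga7 had none in that table. The letters CANNTG (the E-box, bound by myogenic basic helix-loop-helix factors) occurred on either strand in 7 of the 9 windows, against 72.3% of all 32851 windows in the table. GGGCGG (the GC box) occurred in 6 of 9, against 35.7%, and TATAAA (the TATA box) in 0 of 9, against 13.6%. TGANTCA (the AP-1 site) occurred in 2 of 9, against 7.81%, and GGAATG (the core bound by TEAD factors) in 1 of 9, against 14.7%. The 9 windows held 52.3 to 67.3% G and C, against a median of 52.7% over all windows. The part of base content in these counts was not tested. The Itga9 window and an Itga3 window (chr11:95069149-95069448) lay inside the gene, away from its annotated 5′ end. Both AP-1 matches were in these windows, and none was in the windows of the other members or the other Itga3 window. The windows of the subunits that fell and for which one was held, Itga3 (the window at the annotated 5′ end of the gene, chr11:95076665-95076964, minus strand) and Itgb1 (chr8:128685404-128685703, plus strand), are shown with that of Itga11 (chr9:62677605-62677904, plus strand), a collagen receptor subunit outside the 10 that rose with STEM. E-boxes are in capitals.
Itga3: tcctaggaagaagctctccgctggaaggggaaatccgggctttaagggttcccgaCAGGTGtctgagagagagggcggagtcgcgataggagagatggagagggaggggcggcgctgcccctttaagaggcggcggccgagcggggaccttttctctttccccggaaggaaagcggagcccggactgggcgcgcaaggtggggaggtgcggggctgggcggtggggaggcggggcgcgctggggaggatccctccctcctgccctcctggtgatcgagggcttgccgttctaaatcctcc
Itgb1: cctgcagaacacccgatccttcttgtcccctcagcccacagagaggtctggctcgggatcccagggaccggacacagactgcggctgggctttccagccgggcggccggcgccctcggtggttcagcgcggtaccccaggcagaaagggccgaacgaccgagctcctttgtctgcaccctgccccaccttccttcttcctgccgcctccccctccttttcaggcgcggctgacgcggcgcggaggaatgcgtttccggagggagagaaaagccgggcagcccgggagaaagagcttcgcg
Itga11: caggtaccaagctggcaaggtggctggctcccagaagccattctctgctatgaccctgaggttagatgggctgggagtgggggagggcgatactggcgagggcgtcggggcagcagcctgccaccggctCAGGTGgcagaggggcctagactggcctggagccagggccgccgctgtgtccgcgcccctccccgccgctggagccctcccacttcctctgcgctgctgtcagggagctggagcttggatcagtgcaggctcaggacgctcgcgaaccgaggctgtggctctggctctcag
The Itga3 window has 1 E-box, which begins at position -195 from the start site, and 3 GC boxes. Itgb1 has 0 E-boxes and 1 GC box. Itga11 has 1 E-box, at position -121, and 0 GC boxes. These matches describe the letters of the windows and are not measured binding.

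Itga5 (ENSMUSG00000000555, chromosome 15, 103344286 to 103366763, minus strand), the fibronectin receptor chain, ranged from 67.8 to 84.1 CPM with horse serum (median 82.1) and from 68.3 to 96.9 CPM with STEM (median 83.4). The groups overlapped over most of their range, and the log2 fold change was 0.09 (95% confidence interval -0.0767 to 0.255, adjusted p = 0.396, edgeR). Itgav (ENSMUSG00000027087, chromosome 2, 83724397 to 83806916, plus strand), which pairs with beta1, beta3, beta5, beta6 and beta8, ranged from 114 to 174 CPM with horse serum (median 133) and from 114 to 178 CPM with STEM (median 156). Its log2 fold change was 0.18 (95% confidence interval -0.0811 to 0.44, adjusted p = 0.271). The horse serum maximum was library 6, without which the other 5 lay between 114 and 135 CPM and the log2 fold change was 0.27 (adjusted p = 0.0772, edgeR). Within each group, the library lowest in Itga5 (horse serum library 4 with 67.8 CPM and STEM library 10 with 68.3 CPM) was also lowest or next to lowest in Itgav, at 114 CPM in both.

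Itgb5 (ENSMUSG00000022817, chromosome 16, 33829665 to 33949338, plus strand), the beta chain of a vitronectin receptor, ranged from 246 to 386 CPM with horse serum (median 281) and from 256 to 291 CPM with STEM (median 278). Library 6 held the 386 CPM, and the other horse serum libraries reached 292 CPM at most. The log2 fold change was -0.10 (95% confidence interval -0.28 to 0.0816, adjusted p = 0.385), and -0.01 (adjusted p = 0.921, edgeR) without library 6. Itga1 (ENSMUSG00000042284, chromosome 13, 114953096 to 115101964, minus strand), the collagen receptor chain, ranged from 7.95 to 12.5 CPM with horse serum (median 9.12) and from 7.46 to 8.88 CPM with STEM (median 8.01). Its log2 fold change of -0.23 did not pass the test (95% confidence interval -0.465 to 0.00382, adjusted p = 0.114), and without library 6, the highest, it was -0.13. A 685-base stretch of its exons is shared with another annotated gene on the same strand, which had at most 4 counts in any library.

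Itga9 (ENSMUSG00000039115, chromosome 9, 118606690 to 118901003, plus strand), the tenascin C receptor chain, and Itga8 (ENSMUSG00000026768, chromosome 2, 12106632 to 12301922, minus strand), the nephronectin receptor chain, did not pass the filter on low counts. Itga9 had 4 to 15 counts per library with horse serum and 3 to 21 with STEM, or 0.702 ± 0.303 and 0.471 ± 0.238 CPM (SD, n = 6). Itga8 had 1 to 4 counts with horse serum and 1 to 7 with STEM, with 8 of 12 libraries at 3 counts or fewer. With all 12 libraries a difference was not detectable at this depth for either gene. Tested without the filter, the log2 fold changes were -0.48 for Itga9 ± 0.36 (SE; edgeR adjusted p = 0.441) and 0.60 for Itga8 ± 0.564 (SE; edgeR adjusted p = 0.489). Without horse serum library 6, which held the lowest horse serum value of Itga9 (0.205 CPM against 0.494 to 1.03 CPM in the other 5), Itga9 passed the filter, with a log2 fold change of -0.68 ± 0.33 (SE; edgeR adjusted p = 0.0943).

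**Figure D2:**
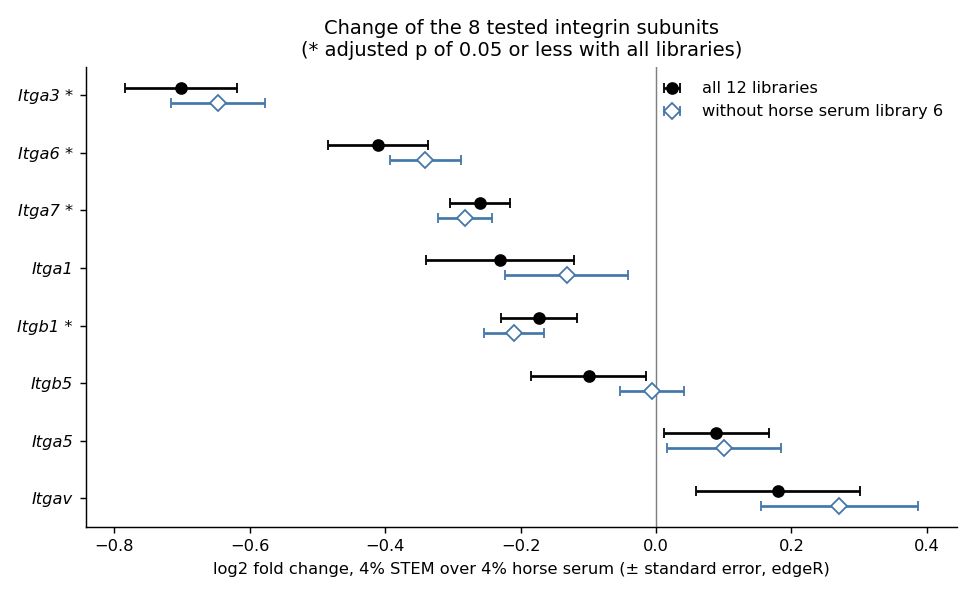
Log2 fold change of STEM over horse serum with its standard error (horizontal axis) for the 8 integrin subunits tested, with all 12 libraries (filled circles) and without horse serum library 6 (open diamonds). Itga3, Itga6 and Itga7 stay well below 0 either way, and Itgb5 moves from -0.10 to -0.01.

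The alpha subunits were summed per library as CPM per kb, as a description with no test. The sum was 182 ± 2.36 with horse serum and 157 ± 4.07 with STEM (SD, n = 6), with ranges of 180 to 185 and 152 to 162. All STEM libraries were lower in the summed transcript of these 8 alpha members. Itga7, the largest part of the sum, was at 137 CPM per kb with horse serum and 114 with STEM. Itga11, which rose with STEM, is outside this sum. Itga7 made up 70.1 to 78.4% of the sum with horse serum and 69.2 to 76.6% with STEM, so most of this sum was of the muscle laminin receptor in every library. Laminin-binding Itga3, Itga6 and Itga7 together made up 84.0 ± 1.68% with horse serum and 79.8 ± 2.40% with STEM, and RGD-binding Itga5, Itga8 and Itgav made up 15.6 ± 1.66% and 19.8 ± 2.39%. The ranges of both shares overlapped. The laminin-binding share was 81.3 to 86.5% with horse serum and 77.1 to 83.6% with STEM, and the RGD-binding share 13.2 to 18.3% and 16.1 to 22.5%. Together they make up nearly all of the sum, so a fall in one share is a rise in the other. The alpha sum relative to Itgb1 was 0.588 ± 0.0411 with horse serum and 0.570 ± 0.0328 with STEM, a difference within the spread between libraries. The ratio of Itgb5 to Itgb1 was 0.270 ± 0.0663 and 0.281 ± 0.022, a difference within a spread that horse serum library 6 widened, with a ratio of 0.400. The other horse serum libraries lay at 0.212 to 0.263 and the STEM libraries at 0.245 to 0.308. Without library 6 the difference was 0.0373, with a horse serum SD of 0.0199.

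**Figure D3:**
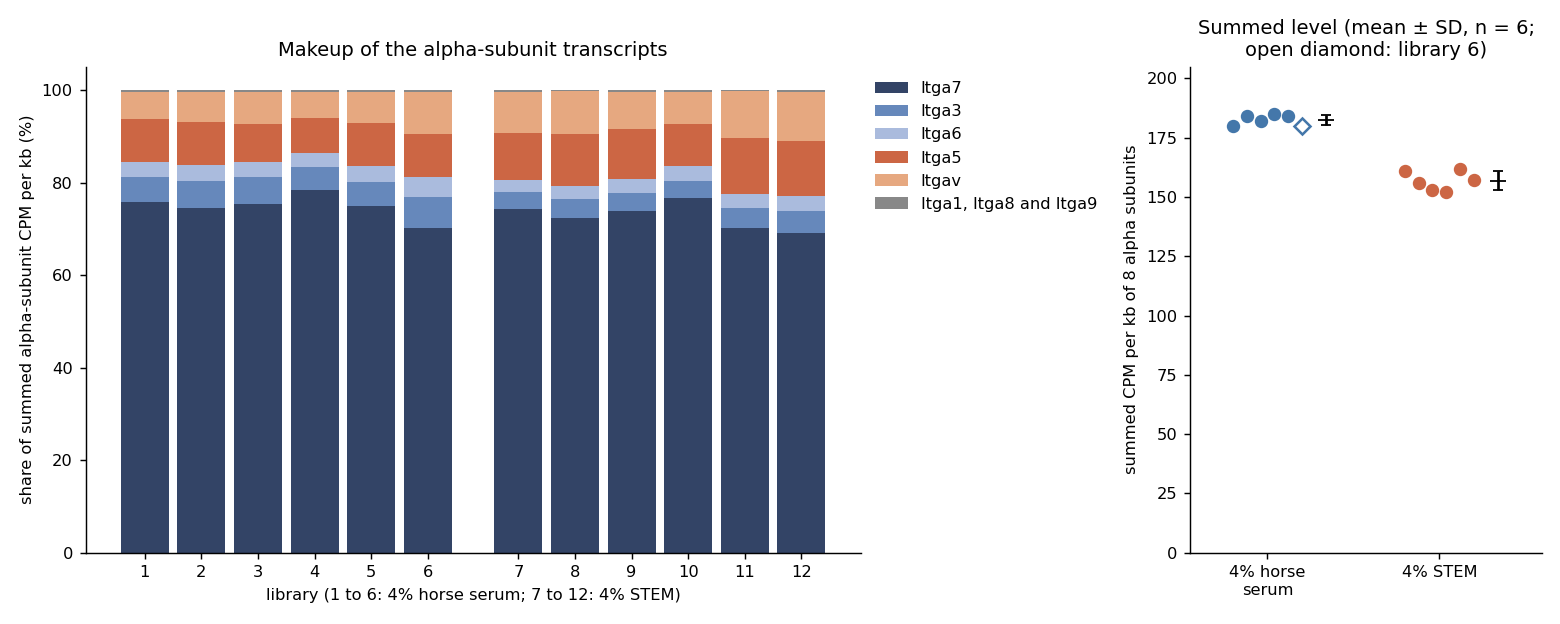
Left, share of each alpha subunit in the summed alpha CPM per kb (%) in each of the 12 libraries, with laminin-binding chains in blue and RGD-binding chains in orange. Right, the sum itself with its mean ± SD, which lies between 152 and 162 in the STEM libraries and between 180 and 185 in the horse serum libraries.

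Horse serum library 6 did not move the subunits one way. Relative to the mean of the other 5 horse serum libraries it held 1.41 times the Itga1, 1.4 times the Itgb5, 1.39 times the Itgav, 1.3 times the Itga6 and 1.23 times the Itga3. It held 0.256 times the Itga9, a gene with few counts, 0.85 times the Itgb1 and 0.908 times the Itga7. The part of its low myotube markers in these values was not tested. Between the media, 4 of 5 markers of dividing cells fell with STEM (Mki67, Top2a, Cdk1 and Bub1), against 17.4% of all genes. Of the 10 myotube markers, Myog and Myh8 fell and Mymk rose, a share of 30% against 36.4% of all genes. Without horse serum library 6 Mymx, Acta1 and Tnnt3 also fell. Then 6 of 10 were called, 5 of them lower, against 50.8% of all genes called and 24.5% lower. Of the myoblast and reserve cell markers, Myf5 fell and Cdh15 rose. Of the fibroblast markers, Ly6a fell and Pi16 rose, and Pdgfra also rose without horse serum library 6. Of 2 tested smooth muscle markers Cnn1 rose, against 18.9% of all genes, and Actg2 also rose without that library, against 26.3%. The part of these changes in the lower laminin-binding subunits was not tested.

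Among the 17 other integrin subunits, 9 were tested, 2 rose and 1 fell, so that 33.3% were called against 36.4% of all genes. Itga11, a collagen I receptor chain, rose from 25.3 ± 4.19 CPM to 45.6 ± 8.98 CPM (SD, n = 6) without overlap, a change on the log2 scale of 0.84 ± 0.133 (SE; edgeR adjusted p = 0.000272), opposite to the laminin-binding chains. Itgb6, a partner of alphav, rose from 38.8 ± 7.61 CPM to 52.1 ± 6.77 CPM (log2 fold change 0.43, adjusted p = 0.021, edgeR). Horse serum library 6 held its lowest value, 24.4 CPM, and without that library the log2 fold change was 0.32 (adjusted p = 0.00399, edgeR). The platelet chain Itga2b fell from 5.82 ± 0.924 CPM to 4.05 ± 0.583 CPM (adjusted p = 0.00867, edgeR). The other alphav partners Itgb3 and Itgb8 did not pass the test, with log2 fold changes of 0.00 and -0.07. Itga10, Itgae and Itgb4 also did not, with log2 fold changes of -0.09, -0.09 and -0.41. The leukocyte chain Itgb2 had a log2 fold change of 0.68 (adjusted p = 0.0766) and of 0.80 without horse serum library 6 (adjusted p = 0.0407 in edgeR).

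Of 37 genes whose products couple integrins to actin and signalling, 33 were tested and 13 were called, of which 7 rose and 6 fell, a share of 39.4% against 36.4% of all genes. Their median log2 fold change was -0.01. The number was 18 of 33 without horse serum library 6, against 50.8% of all genes. In the complex of integrin-linked kinase, 3 of 6 tested genes fell, against 17.4% of all genes. Without horse serum library 6 this was also 3 of 6, against 24.5%. The adaptor Lims1 (PINCH1), which binds the kinase, fell from 335 ± 15.3 CPM to 245 ± 15.2 CPM (log2 fold change -0.45, adjusted p = 9.25e-06, edgeR), and its paralog Lims2 fell by 0.69 on the log2 scale (adjusted p = 0.0056). Ilk itself fell by 0.16 (adjusted p = 0.0163), from 139 ± 2.26 CPM to 125 ± 8.40 CPM.

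Talins and kindlins bind the beta tail and switch integrins on. Of 3 tested, the muscle-enriched talin Tln2 rose by a log2 fold change of 0.24 (adjusted p = 0.00878). Tln1 had a log2 fold change of 0.11 (adjusted p = 0.356) and, without horse serum library 6, of 0.20 (adjusted p = 0.00939, edgeR). The kindlin Fermt2 had a log2 fold change of -0.30 (adjusted p = 0.0599) and, without horse serum library 6, of -0.40 (adjusted p = 2.12e-06, edgeR), and that library held 177 CPM against 287 to 316 CPM in the other 5. All 3 were thus called without it, against 50.8% of all genes. Among the actin linkers 4 of 11 tested were called (36.4%), the same share as of all genes. Vinculin (Vcl) fell from 526 ± 31.1 CPM to 441 ± 17.2 CPM and Zyx fell by 0.29 on the log2 scale, while the actin polymerisation factor Vasp rose from 145 ± 14.6 CPM to 180 ± 8.30 CPM and filamin C (Flnc) rose by 0.28.

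Of 9 focal adhesion signalling genes, 4 rose and 1 fell, against 18.9% and 17.4% of all genes. The kinase genes Src (log2 fold change 0.22) and Ptk2 (0.17), the scaffold Bcar1 (0.19) and Tgfb1i1 (0.44) rose. Nedd9, a scaffold of the same family as Bcar1, fell from 128 ± 13.1 CPM to 76.7 ± 6.77 CPM, a change on the log2 scale of -0.74 ± 0.0731 (SE; edgeR adjusted p = 3.36e-06). Of 4 tail binders and inhibitors (Itgb1bp1, Itgb1bp2, Sharpin and Dok1) edgeR called 0, as did DESeq2 and limma-voom, and 0 had an unadjusted p under 0.05 in any of these tools. Without horse serum library 6 edgeR called Itgb1bp1 (log2 fold change 0.15) and Sharpin (-0.14). Itgb1bp2, the muscle protein melusin, was at 38.8 CPM in horse serum library 6 against 115 to 145 CPM in the other 5.

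Of 11 membrane partners of integrins, 1 rose and 3 fell, so that 36.4% were called, the same share as of all genes. The tetraspanin Cd9, which takes part in myoblast fusion, fell from 221 ± 12.2 CPM to 139 ± 13.1 CPM without overlap (log2 fold change -0.67, adjusted p = 1.7e-06, edgeR). Another tetraspanin, Cd82, rose from 301 ± 24.9 CPM to 360 ± 21.1 CPM. The caveolins Cav3, the muscle form, and Cav1 fell by 0.54 and 0.27 on the log2 scale. When horse serum library 6 was left out, 7 of the 11 were called, against 50.8% of all genes.

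Of 30 genes that encode ligands of these receptors, 28 were tested and 17 were called (60.7%), of which 14 rose and 3 fell, against 36.4% of all genes called, 18.9% higher and 17.4% lower. The number was 19 of 28 without horse serum library 6, against 50.8%. The 3 that fell were Lama2, Spp1 and Vcam1. Lama1 had a log2 fold change of 1.88, and of 2.56 without horse serum library 6. That library held 9.02 CPM of Lama1 against 0.891 to 3.08 CPM in the other 5. Among laminin chains Lama1, Lamb2, Lamb3 and Lamc1 rose, and Lama2, the alpha chain of the mature muscle basement membrane, fell from 132 ± 11.3 CPM to 105 ± 9.86 CPM (log2 fold change -0.33, adjusted p = 0.00175, edgeR), the same direction as Itga7. Among RGD ligands Tnc, Fbn1, Fbln5, Fn1 and Tgfb1 rose, with log2 fold changes of 0.56 to 0.78, and Spp1, osteopontin, fell by 1.59. Col1a1, Col4a1 and Col4a2 rose while the collagen receptor chain Itga1 did not pass the test. Of ligands of alpha9beta1, Tnc, Emilin1 and Adam12 rose and Vcam1 fell by 0.80 on the log2 scale.

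**Figure D4:**
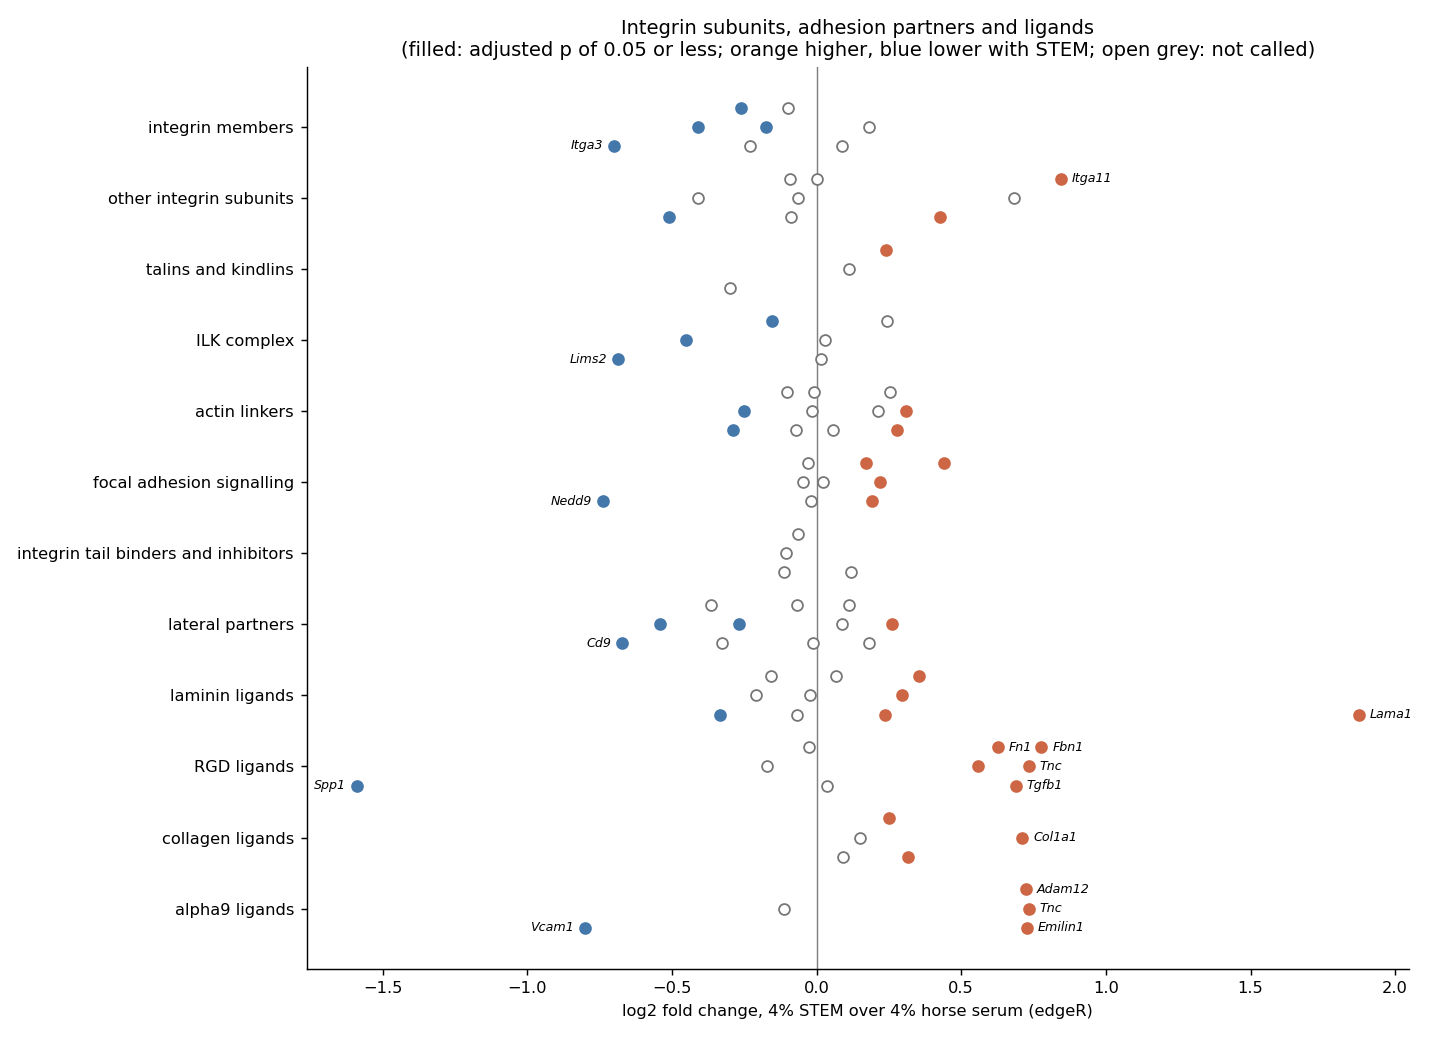
Log2 fold change of STEM over horse serum (horizontal axis) for each tested gene of the integrin subunits, their intracellular and membrane partners and their ligands (rows), filled where the adjusted p-value is 0.05 or less, with the names of called genes beyond 0.6 in either direction. The 4 called integrin members lie left of 0, and most called ligands lie right of it.

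Itga3 was the called subunit with the lowest p-value. Among the genes whose standardised log2 CPM over the 12 libraries lay nearest to it were Adamtsl3, Hdac7, Syne2 and Bmp4, with a root mean square difference of 0.211 to 0.242 standard deviations, against a median of 1.38 over all tested genes. Being chosen for a profile like that of Itga3, these genes had to be lower with STEM, and as a description their log2 fold changes ranged from -0.96 for Bmp4, a growth factor of the BMP family, to -0.31 for Adamtsl3.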

How the data were processed

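The authors deposited raw read counts per Ensembl gene for 12 libraries (stranded total RNA, ribosomal RNA removed), with no normalization. The submitters' processing notes name STAR 2.7.3a, featureCounts 1.6.3, DESeq2 1.26.0 and build GRCm38. The annotation release and strand setting are not given in the sources used here, so reads of overlapping genes may be shared. Libraries were grouped by their titles. Symbols, positions and exon lengths came from GENCODE M21 (GRCm38), and promoter windows from RefSeq. Counts were tested with edgeR 4.0.16 (TMM, filterByExpr, glmQLFit with robust estimation) in R 4.3.3, which kept 14175 genes. For log2 CPM the prior count was 2, and the exact permutation tests ran over all 924 splits. Alternatives were DESeq2 1.42.0, limma-voom (limma 3.58.1), other scalings, filters and thresholds, offsets for GC content and length, and leaving out each library. In simulated counts over 14175 genes edgeR recovered 85 of 100 genes changed 2-fold, with 5.29% of its calls false. Apart from these, only 100 genes were changed, by 4-fold. The simulation thus does not cover changes as small as those of the called subunits, as many changed genes, or a library that stands apart.

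The members and gene lists were chosen with earlier results of these data known. The genes named are all 10 members, the tested other integrin subunits, up to 3 genes with the lowest p-values called in each direction per list, the markers, and the 5 genes most like the called member with the lowest p-value. Of these 5, 1 is not reported here. Genes outside this rule (Fermt2, Tln1, Itgb1bp2 and the other tail binders, Ptk2, Fn1, Tgfb1, Lamb2) were named after their values were seen. A planned description of the subunit proteins was not made. Counts at 3 or fewer were taken as the floor, and intervals and floors cover counting error or library spread only.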

Additional observations from a re-analysis of the deposited data

Results flagged for a closer look

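The CPM of each of the 10 subunits was checked in each group of 6 for a single library far from the others (Dixon's test at the 95% level). This flagged 4 of 20 groups, where chance alone flags about 1 in 20, and all 4 were horse serum library 6. It had the highest Itga6 (70.4 CPM, next 58.0 CPM), the highest Itgav (174 CPM, next 135 CPM), the highest Itgb5 (386 CPM, next 293 CPM) and the lowest Itgb1 (1110 CPM, next 1250 CPM). The summed myotube markers were also lowest in this library, and their part in these values was not tested.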

How the results depend on the processing

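The 8 tested subunits kept their direction under all 20 alternatives each, and Itga3, Itga6 and Itga7 stayed called under all of them, with log2 fold changes of -0.76 to -0.65, -0.44 to -0.34 and -0.32 to -0.24. Itgb1 lost its call without any 1 of 6 libraries, named in the report. Leaving out each library gave 3 to 4 called members, 2 to 4 other subunits, 11 to 18 adaptors, 16 to 19 ligands, 4 to 7 lateral partners and 4459 to 7245 genes in all. At an adjusted p of 0.01 the calls were 3266 genes and 8 adaptors. The STEM minus horse serum difference in the ratio of Itgb5 to Itgb1 was 0.0112, and ranged from -0.000328 (without horse serum library 1) to 0.0373 (without library 6). The highest counts of genes, adaptors and lateral partners were those without horse serum library 6. No paired analysis was possible because the libraries of both groups share no replicate numbers. Depth limited Itga8 and Itga9, which did not pass the filter with all 12 libraries.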
